A study of Danio rerio with 12 samples.

Results

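The Wnt ligands, their receptors, the secreted modulators of both, and the intracellular transducers and nuclear factors of the pathway were followed on 12 single-colour arrays of whole zebrafish embryos. A probe belonged to the group where the RefSeq accession given for it in the scanner output maps to a gene symbol beginning with wnt and a digit, fzd, dkk, sfrp, axin, lef1, tcf7, lrp5, lrp6 or dvl. The rule used no measured value. It found 91 of 43603 probes, for 52 of 12858 named genes. The genes were 20 ligands, 14 receptors, 8 secreted modulators, 5 intracellular transducers and 5 nuclear factors. Another 12 symbols match the rule but have no probe named here, among them wnt1, dvl1a, dkk1a and fzd4, and were not analysed. Of the 52 genes, 27 had several probes, up to 5 for fzd7b, and each gene is described by its brightest tested probe unless another probe is named.

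All embryos were of the AB wild-type strain. The 4 groups were 72 hpf (hours post fertilisation) embryos kept for 3 h in 25 µM beclomethasone, 72 hpf embryos kept for 3 h in 0.1% DMSO, 24 hpf embryos in the same beclomethasone dose and 24 hpf embryos in the same DMSO dose, with 3 arrays each. Beclomethasone is a synthetic glucocorticoid, a ligand of the receptor that cortisol activates, and DMSO is its solvent. The labels do not say whether replicates came from separate clutches, so that the p-values measure only the spread between these samples, which may be technical.

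Wnt proteins are secreted, lipid-modified ligands that bind Frizzled receptors. In the beta-catenin branch, Frizzled and the co-receptors Lrp5 and Lrp6 act through Dishevelled (Dvl) to stop the Axin complex from destroying beta-catenin, which then joins Lef1 and the Tcf7 factors on DNA. In the planar polarity branch, Frizzled and Dishevelled steer cell shape and movement without beta-catenin. Classical Dkk proteins such as Dkk1 bind Lrp5 and Lrp6, and Sfrp proteins resemble the ligand-binding part of Frizzled. These act outside the cell, mostly as inhibitors. In the zebrafish embryo the pathway patterns the tail, the neural tube, the fins and the liver.

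On 11 arrays 31210 to 37401 non-control spots carried the scanner software's flag for signal well above background, against 16764 on 24 hpf DMSO replicate 3. That array's lowest signal was 42.8 scanner units, against 2.36 to 3.89 on the others, and 42 of the 91 Wnt pathway probes were well above background on it, against 73 to 85. Arrays shared 3 slides. The first held the 3 24 hpf DMSO arrays and 24 hpf beclomethasone replicate 1, the second 24 hpf beclomethasone replicates 2 and 3 and 72 hpf DMSO replicates 1 and 2, and the third 72 hpf DMSO replicate 3 and the 3 72 hpf beclomethasone arrays. Treatment labels were taken from the scanner output, under which 4 of 4 textbook glucocorticoid receptor targets (fkbp5, klf9, hsd11b2 and tsc22d3) rose at both stages. The authors' deposited log2 table carries opposite treatment labels, so that all 22 treatment calls below (19 for beclomethasone and 3 for the difference between the stages, over all probes) change sign in it, whereas with those labels the stage comparisons in beclomethasone and in DMSO exchange names.

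More Wnt pathway genes were called by stage than for beclomethasone, as was so for all named genes. Levels below are processed signals in percent of the signal at the array's 75th percentile, and are compared only within a probe. A call is an adjusted p below 0.05 in a limma fit over all 36058 tested probes, and 84 of the 91 probes (50 of the 52 genes) were bright enough in at least 1 group to be tested. The filter kept dvl1b and wnt8a out, and 27 of the 50 genes were well above background on all 12 arrays. At 72 hpf, 5 of the 50 genes were called for beclomethasone (10%), 2 higher and 3 lower, against 12.3% of all named genes tested (5.17% higher and 7.15% lower). At 24 hpf, 6 of 50 were called (12%), 4 higher and 2 lower, against 24.1% of all named genes (11.7% higher and 12.4% lower). Between the stages, 33 of 50 were called the same way in beclomethasone and in DMSO, which share no array, against 62.2% of all named genes. Of these, 7 were higher at 72 hpf (14%, against 29.3% of all named genes) and 26 lower (52%, against 32.9%). In neither treatment did a slide hold arrays of both stages, so that within a treatment stage and slide cannot be told apart. With slide as a block 22 genes were called the same way, 3 higher and 19 lower. That fit called 15050 of the 36058 probes by stage in beclomethasone and 16133 in DMSO, against 24385 and 23943 without the block.

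The stage calls numbered 8 higher and 27 lower at 72 hpf in beclomethasone (73.2% of all named genes called, 35.7% higher and 37.5% lower) and 8 higher and 30 lower in DMSO (72.5%, 34.1% higher and 38.4% lower). The median log2 fold change of the 50 genes, 72 over 24 hpf, was -0.60 in beclomethasone and -0.69 in DMSO, beside medians of 0.01 and -0.05 over all named genes. Whole embryos were measured, so that fewer cells of a type and less RNA per cell cannot be told apart. Markers of several tissues moved with stage as well. All 4 tail bud markers (tbxta, tbx16, cdx4 and msgn1) were called lower at 72 hpf in both treatments, with log2 fold changes of -1.28 (tbxta) to -3.80 (msgn1) in beclomethasone and -1.66 to -3.85 in DMSO, with tbx16 above background on none of the 72 hpf arrays. Both measured hatching gland markers were called lower in both treatments (he1.1 -4.63 in beclomethasone and -5.23 in DMSO, ctslb -5.39 and -4.40), as were 2 of 3 muscle markers in beclomethasone and 3 of 3 in DMSO. Markers of liver, pancreas, retina and cartilage were called higher (10 of 10 measured in both treatments). The neuron, skin and blood markers were called in both directions or in part, and the markers' part in the result was not tested. Centring arrays on their median in place of the 75th percentile moved the median of all probes to -0.26 in beclomethasone and -0.41 in DMSO, against 0.04 and -0.08, and left the split at 5 higher and 29 lower. Without 24 hpf DMSO replicate 3 it was 11 higher and 26 lower. The added higher calls were dkk2, lef1, wnt2ba and wnt4b. Of all 36058 tested probes, median centring called 24985 by stage in beclomethasone and 25115 in DMSO. The fit without 24 hpf DMSO replicate 3 called 27269 in DMSO.

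**Figure D1:**
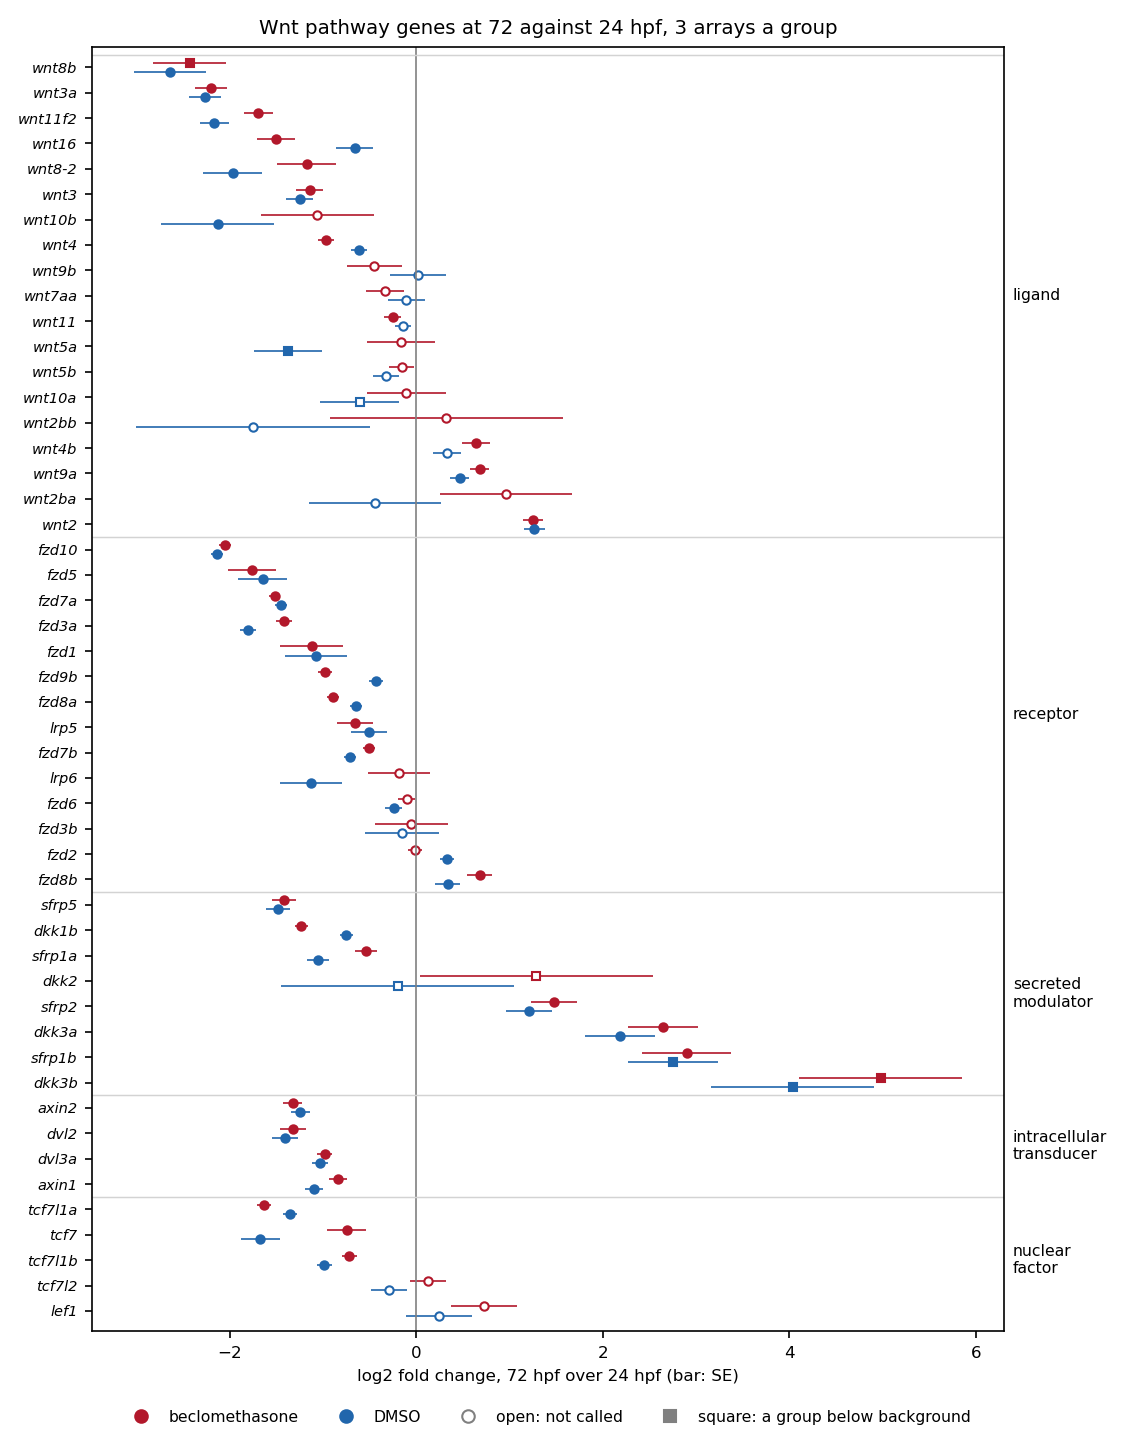
Log2 fold change of 72 over 24 hpf (horizontal axis, bar for the SE, 3 arrays a group) for the 50 tested Wnt pathway genes, ordered by role, with beclomethasone above DMSO in each row. Filled symbols are called, squares mark genes for which a compared group was above background on no array, and all 4 transducers lie left of 0 while 4 of 8 secreted modulators lie far to the right.

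Among the 19 tested ligands, wnt2 was higher at 72 hpf and wnt3a, wnt8b and wnt11f2 were among those lower. The ligand Wnt2, which takes part in liver formation in zebrafish together with Wnt2bb, had levels of 90.8, 87.0 and 92.8 in 72 hpf beclomethasone embryos, 61.3, 58.4 and 59.1 in 72 hpf DMSO embryos, 40.2, 36.2 and 37.5 in 24 hpf beclomethasone embryos and 26.5, 28.0 and 20.4 in 24 hpf DMSO embryos. Its 4 groups did not overlap. The log2 fold change of 72 over 24 hpf was 1.25 in beclomethasone and 1.27 in DMSO (SE 0.11 each). In all, 2 ligands were called higher in both treatments (wnt2 and wnt9a) and 7 lower (wnt8b, wnt3a, wnt11f2, wnt16, wnt8-2, wnt3 and wnt4). For all named genes the shares were 29.3% higher and 32.9% lower. The level of wnt9a, a ligand needed for blood stem cells to arise in zebrafish, differed by 0.68 in beclomethasone and 0.47 in DMSO. Both other probes of wnt9a were also called, with log2 fold changes of 1.19 and 1.15 in beclomethasone and 1.27 and 1.43 in DMSO. With slide as a block the stage calls of the brightest wnt9a probe were lost (adjusted p = 0.0901 in beclomethasone and 0.224 in DMSO). In that fit a dimmer wnt9a probe was still called higher in both treatments (adjusted p = 0.0402 and 0.0175). The remaining wnt9a probe was called higher in DMSO (adjusted p = 0.0127) and not called in beclomethasone (adjusted p = 0.0527).

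The ligands wnt8b, wnt3a and wnt11f2 had the lowest stage values. The ligand Wnt3a, which maintains the tail bud and acts in the dorsal neural tube, had levels of 10.5, 8.04 and 9.66 in 72 hpf beclomethasone embryos, 10.7, 8.51 and 9.47 in 72 hpf DMSO embryos, 37.5, 43.9 and 48.1 in 24 hpf beclomethasone embryos and 56.9, 45.5 and 36.9 in 24 hpf DMSO embryos. All 72 hpf values lay below all 24 hpf values, with log2 fold changes of -2.20 (SE 0.17, adjusted p = 2.14e-06) in beclomethasone and -2.26 (SE 0.17, adjusted p = 1.67e-06) in DMSO. Its relative wnt3 fell by 1.14 and 1.25 on the log2 scale. The brain ligand gene wnt8b was well above background on 0 of 3 arrays at 72 hpf in beclomethasone and 1 of 3 in DMSO, against 3 of 3 and 2 of 3 at 24 hpf. It was at least 3.10-fold lower at 72 hpf in beclomethasone, where a bound sets the dim group at the array's lowest signal above background. The adjusted p there, 0.000345 in limma, tests the measured signals and not the bound. The log2 fold change of wnt8b in DMSO was -2.64 (SE 0.39, adjusted p = 0.000186). For wnt11f2, whose loss in the silberblick mutant disturbs cell movements in gastrulation, the log2 fold change was -1.69 in beclomethasone and -2.16 in DMSO, and its other probe gave -2.12 and -2.09. The paralog wnt11 changed little, with -0.25 in beclomethasone (adjusted p = 0.0247) and -0.14 in DMSO (adjusted p = 0.188). The call in beclomethasone was lost without 24 hpf beclomethasone replicate 2 or 72 hpf beclomethasone replicates 2 or 3 (adjusted p 0.0554 to 0.0887) and with slide as a block (adjusted p = 0.359).

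The gene wnt8-2 differed by -1.17 in beclomethasone and -1.97 in DMSO, and wnt4 by -0.96 and -0.61. The other wnt4 probe was called by stage in neither treatment. The blood stem cell ligand gene wnt16 differed by -1.50 and -0.66, and its call in DMSO was lost without 24 hpf DMSO replicates 1 or 2 (adjusted p = 0.0589 and 0.0585). A slide block ended the stage calls of wnt8-2 (adjusted p = 0.115) and wnt8b (adjusted p = 0.0963) in beclomethasone and of wnt16 in DMSO (adjusted p = 0.388). Neither wnt5 gene, for ligands of the planar polarity branch, was called the same way in both treatments, which leaves room for a call in 1. The log2 fold change of wnt5b was -0.16 in beclomethasone and -0.32 in DMSO (adjusted p = 0.338 and 0.0624), and the value in DMSO was -0.50 without 24 hpf DMSO replicate 3, which was called (adjusted p = 0.000444). The probe of wnt5a was above background on no 24 hpf DMSO array. The brain ligand gene wnt7aa gave -0.33 and -0.10 (adjusted p = 0.171 and 0.669). The level of wnt10b on 24 hpf DMSO replicate 3 was 58.2, against 8.78 and 9.32 on its fellows. Its stage log2 fold change in DMSO was -2.13 with that array and -1.23 without it, called both times (adjusted p = 0.0108 and 0.000238), and was -1.06 in beclomethasone, which was called only without that array (adjusted p = 0.147 with it and 0.000302 without it). The wnt10b call in DMSO was lost with slide as a block (adjusted p = 0.186). The other ligands not called the same way in both treatments were wnt10a, wnt2ba, wnt2bb, wnt4b and wnt9b, with log2 fold changes of -0.45 to 0.97 in beclomethasone and -1.75 to 0.33 in DMSO. Without that array wnt2ba turned to 0.64 in DMSO, against -0.44 with it, and wnt4b was 0.52, against 0.33. With slide as a block the dimmer wnt4b probe was called higher in both treatments. Its values were 0.97 in beclomethasone and 1.03 in DMSO (adjusted p = 0.0206 and 0.0153). The brightest wnt4b probe was called in neither in that fit (adjusted p = 0.0972 and 0.291).

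**Figure D2:**
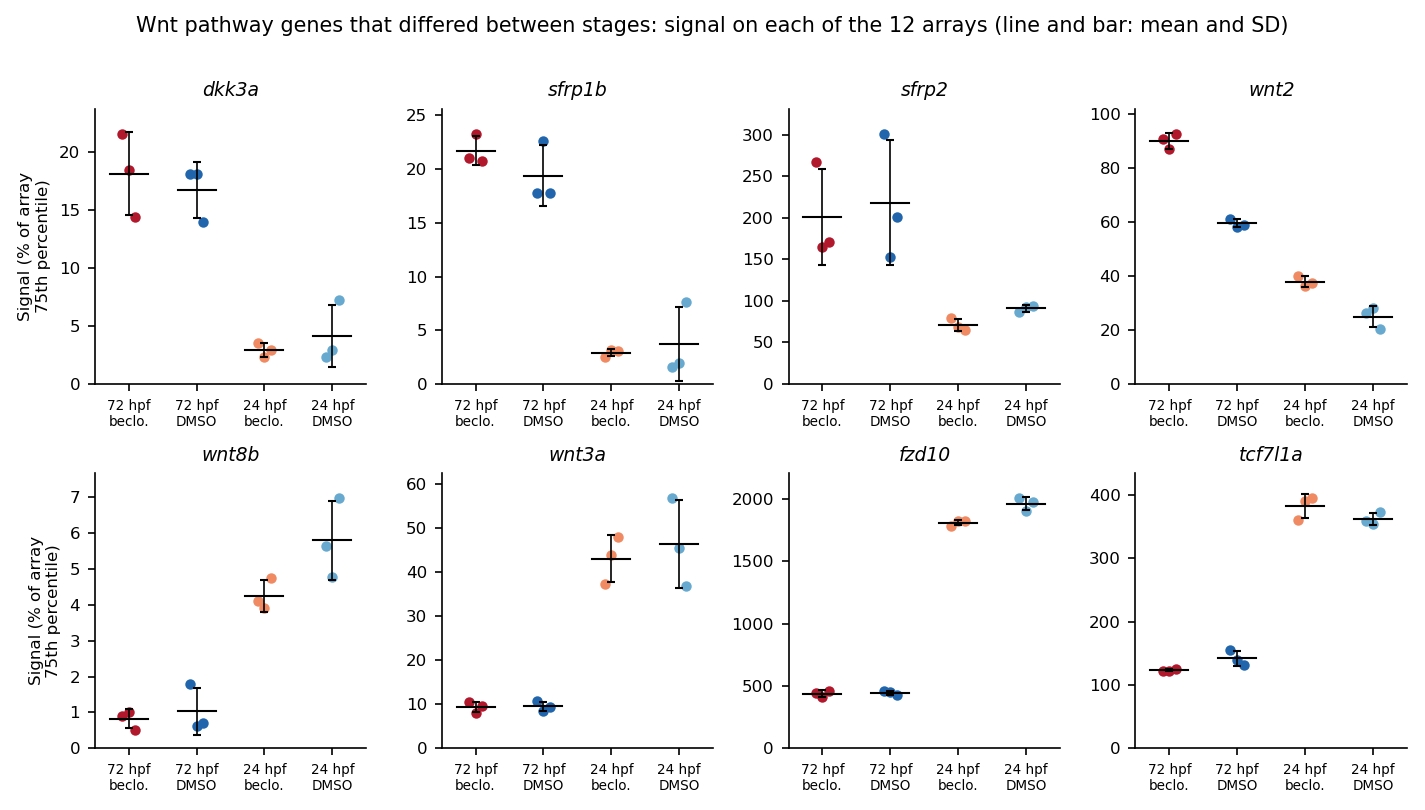
Processed signal on each of the 12 arrays (vertical axis, percent of the array's 75th percentile) for 8 genes, with groups from left to right 72 hpf beclomethasone, 72 hpf DMSO, 24 hpf beclomethasone and 24 hpf DMSO, the line and bar giving mean and SD (n = 3). The upper 4 genes are higher and the lower 4 lower on every 72 hpf array than on every 24 hpf array, and 24 hpf DMSO replicate 3 stands above its fellows for dkk3a and sfrp1b.

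After beclomethasone, wnt2 was higher at both stages. At 72 hpf its mean level was 90.2 ± 2.92 in beclomethasone embryos and 59.6 ± 1.52 in DMSO embryos (SD, n = 3 each), a log2 fold change of 0.60 (SE 0.11, adjusted p = 0.00787). At 24 hpf it was 38.0 ± 2.02 in beclomethasone embryos and 25.0 ± 4.01 in DMSO embryos, a log2 fold change of 0.62 (SE 0.11, adjusted p = 0.00497). Both calls held without any 1 array. The probe was well above background on 2 of the 3 24 hpf DMSO arrays, and without replicate 3 the 24 hpf value was 0.48. With normexp background correction it was 0.30, still called (adjusted p = 0.00756). With slide as a block the values were 0.61 at 72 hpf and 0.70 at 24 hpf, and neither was called (adjusted p = 0.145 and 0.0623). A fit of only the arrays compared kept the 72 hpf call (adjusted p = 0.00288) and lost the 24 hpf call (adjusted p = 0.0668).

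The ligands wnt4 and wnt16 were called at 1 stage each. The level of wnt4 at 72 hpf was 19.3, 17.2 and 16.6 in beclomethasone embryos and 23.2, 22.9 and 22.8 in DMSO embryos, without overlap, and the log2 fold change was -0.38 (SE 0.09, adjusted p = 0.0246). At 24 hpf the wnt4 difference was -0.03 (95% confidence interval -0.23 to 0.17), and the other wnt4 probe was called at neither stage. The wnt4 call was lost without any 1 of the 72 hpf DMSO replicates or without 72 hpf beclomethasone replicates 2 or 3 (adjusted p 0.0572 to 0.103). The level of wnt16 at 24 hpf was 24.5, 24.3 and 19.4 in beclomethasone embryos and 16.5, 16.0 and 9.13 in DMSO embryos, and the log2 fold change was 0.75 (SE 0.20, adjusted p = 0.0268). Its lowest DMSO value came from replicate 3, and the value without that array was 0.47 (adjusted p = 0.0108). With normexp background correction it was 0.24 (adjusted p = 0.0374). Without 24 hpf beclomethasone replicates 1 or 2 it was 0.69 and 0.70, and was not called (adjusted p = 0.0875 and 0.0951). Nor was wnt16 called at 24 hpf with only the arrays compared (adjusted p = 0.144) or with a slide block (adjusted p = 0.146). At 72 hpf wnt5a had levels of 4.15, 3.59 and 3.95 in beclomethasone embryos and 1.55, 1.62 and 1.96 in DMSO embryos and a log2 fold change of 1.19 (SE 0.36) that missed the threshold (adjusted p = 0.0801), with 1 of the 3 DMSO arrays well above background.

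Most receptors were lower at the later stage. Of 14 tested receptors, 9 were called lower at 72 hpf in both treatments, namely fzd10, fzd5, fzd7a, fzd3a, fzd1, fzd9b, fzd8a, fzd7b and the co-receptor lrp5, and fzd8b was called higher. Among all named genes 32.9% were called lower and 29.3% higher in both. With slide as a block 7 receptors were called lower in both treatments. The Frizzled of the dorsal neural tube, fzd10, had levels of 445, 411 and 464 in 72 hpf beclomethasone embryos, 461, 453 and 429 in 72 hpf DMSO embryos, 1789, 1826 and 1823 in 24 hpf beclomethasone embryos and 2009, 1909 and 1976 in 24 hpf DMSO embryos. The 72 hpf arrays of both treatments lay far below the 24 hpf arrays, with log2 fold changes of -2.04 (SE 0.06, adjusted p = 5.32e-09) in beclomethasone and -2.13 (SE 0.06, adjusted p = 4.9e-09) in DMSO. The widely expressed fzd7a had levels of 586, 569.8 and 544 in 72 hpf beclomethasone embryos, 608, 585 and 576 in 72 hpf DMSO embryos, 1536, 1658 and 1672 in 24 hpf beclomethasone embryos and 1625, 1562 and 1647 in 24 hpf DMSO embryos, and its log2 fold changes were -1.52 in beclomethasone and -1.45 in DMSO, with -1.44 and -1.15 for its other probe. The eye-field receptor gene fzd5 differed by -1.76 and -1.64, and fzd3a, which guides axons in vertebrates, by -1.42 and -1.80, with -1.78 and -1.36 for its other probe. Smaller differences were measured for fzd8a (-0.89 and -0.64), fzd7b (-0.51 and -0.71) and fzd9b (-0.98 and -0.43). Only some of the fzd7b probes were called in each treatment, and the other fzd8a probe was not called in DMSO. With slide as a block a dimmer fzd7b probe gave -0.39 and 0.52, called in neither (adjusted p = 0.392 and 0.251). The values of the other fzd7b probes were negative in both treatments in that fit.

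Dim receptor genes gave less firm values. The fzd8b level was 9.08, 10.6 and 9.91 in 72 hpf beclomethasone embryos, 7.30, 7.75 and 8.37 in 72 hpf DMSO embryos, 5.78, 6.20 and 6.46 in 24 hpf beclomethasone embryos and 4.88, 6.99 and 6.86 in 24 hpf DMSO embryos, and its log2 fold change of 0.34 in DMSO turned to -0.17 after another background correction. The fzd8b call in DMSO was lost without 24 hpf DMSO replicate 1 or any 1 of the 72 hpf DMSO replicates (adjusted p 0.0580 to 0.140). The fzd1 log2 fold change was -1.12 in beclomethasone and -1.07 in DMSO, the second being -0.70 without 24 hpf DMSO replicate 3, and the calls were lost without 72 hpf beclomethasone replicate 2 (adjusted p = 0.0520) or 72 hpf DMSO replicate 1 (adjusted p = 0.0525). The co-receptor gene lrp5 differed by -0.66 in beclomethasone and -0.50 in DMSO. Its call in DMSO was lost without 24 hpf DMSO replicate 3 (-0.30, adjusted p = 0.120) or 72 hpf DMSO replicates 1 or 2 (adjusted p = 0.0556 and 0.154), and in beclomethasone without 24 hpf replicate 2 or 72 hpf replicate 3 (adjusted p = 0.0517 and 0.0530). Under quantile normalization the lrp5 value in DMSO was 0.44. The second co-receptor gene, lrp6, was called in DMSO (-1.13, adjusted p = 0.0125) and not in beclomethasone (-0.18, adjusted p = 0.642). For fzd3b the values were -0.05 in beclomethasone and -0.15 in DMSO (adjusted p = 0.913 and 0.75), and the value in DMSO turned to 0.32 without 24 hpf DMSO replicate 3 (adjusted p = 0.315). A block for slide ended the stage calls of fzd1 (adjusted p = 0.109 in beclomethasone and 0.109 in DMSO), fzd8b (0.195 and 0.679), lrp5 (0.0796 and 0.136) and, in DMSO, lrp6 (0.191). The probes of fzd6, a planar polarity receptor gene, disagreed in beclomethasone. There 2 of the 4 were called lower (-0.32 and -0.50), 1 higher (0.45) and the brightest in neither direction (-0.10). With slide as a block all 4 values were negative, -0.10 to -0.62 in beclomethasone and -0.27 to -0.78 in DMSO. In DMSO the brightest fzd6 probe was called lower. That call was lost without any 1 of the 24 hpf DMSO replicates or 72 hpf DMSO replicates 1 or 2 (adjusted p 0.0556 to 0.126).

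After beclomethasone, 2 receptors were lower at 72 hpf. The broadly expressed fzd2 had levels of 308, 311 and 323 in 72 hpf beclomethasone embryos, 468, 447 and 421 in 72 hpf DMSO embryos, 337, 299 and 316 in 24 hpf beclomethasone embryos and 348, 379.5 and 339 in 24 hpf DMSO embryos. At 72 hpf every beclomethasone array lay below every DMSO array, with a log2 fold change of -0.50 (SE 0.07, adjusted p = 0.00237), and the 72 hpf beclomethasone values lay within the range of the 24 hpf arrays. Its stage log2 fold change was -0.01 in beclomethasone (adjusted p = 0.882) and 0.33 in DMSO (adjusted p = 0.00307), and the value in DMSO became -0.00092 with arrays centred on their median. The neural fzd9b averaged 69.7 ± 3.43 in 72 hpf beclomethasone embryos, 98.6 ± 7.39 in 72 hpf DMSO embryos, 137 ± 4.95 in 24 hpf beclomethasone embryos and 133 ± 1.86 in 24 hpf DMSO embryos (SD, n = 3 each). Its treated 72 hpf arrays were the lowest of all 12, with a log2 fold change of -0.50 (SE 0.07, adjusted p = 0.00212), while the 24 hpf groups overlapped (0.05, 95% confidence interval -0.12 to 0.21). Both calls held without any 1 array and were lost with slide as a block (fzd2 -0.42, adjusted p = 0.0862, and fzd9b -0.38, adjusted p = 0.0926).

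At 24 hpf no receptor was called by its brightest probe. Dimmer probes were called higher for fzd7b (0.64 and 0.28, adjusted p = 0.0264 and 0.02) and fzd8a (0.33, adjusted p = 0.0425). The brightest probes of these genes gave -0.12 and 0.10 (adjusted p = 0.179 and 0.306), so that probes of 1 gene disagreed. With normexp background correction the larger fzd7b value was 0.12 (adjusted p = 0.312).

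**Figure D3:**
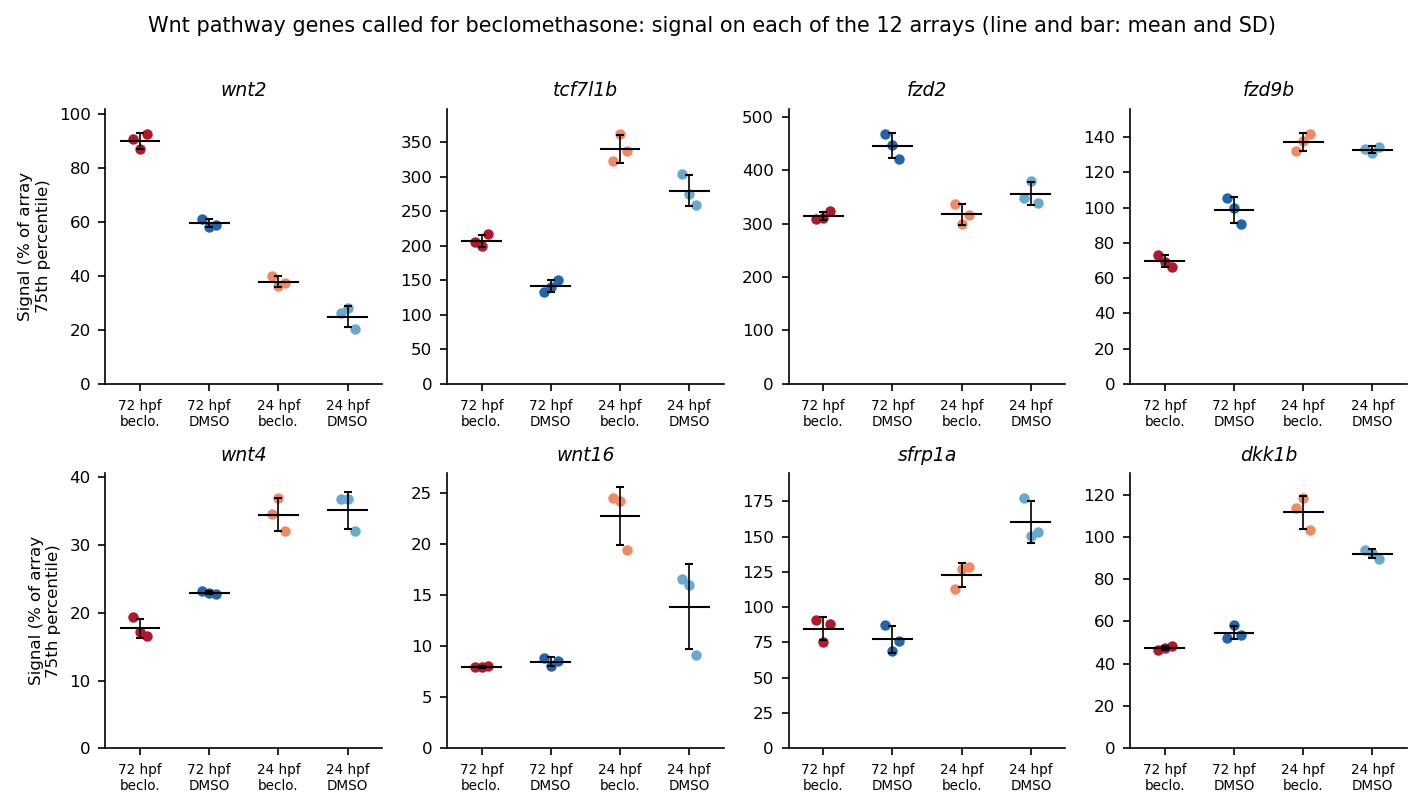
Processed signal on each of the 12 arrays (vertical axis, percent of the array's 75th percentile) for 8 of the 9 genes whose brightest probe was called for beclomethasone, with groups from left to right 72 hpf beclomethasone, 72 hpf DMSO, 24 hpf beclomethasone and 24 hpf DMSO, the line and bar giving mean and SD (n = 3). At 72 hpf the treated arrays lie above the DMSO arrays for wnt2 and tcf7l1b and below them for fzd2, fzd9b and wnt4.

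The secreted modulators split by stage, beside 29.3% of all named genes called higher and 32.9% lower in both treatments. Higher at 72 hpf in both treatments were dkk3a, dkk3b, sfrp1b and sfrp2, and lower were dkk1b, sfrp1a and sfrp5, while dkk2, at 1.29 in beclomethasone and -0.20 in DMSO, was called in neither (adjusted p = 0.382 and 0.898). Without 24 hpf DMSO replicate 3 the dkk2 value in DMSO turned to 1.67, and dkk2 was called higher in both (adjusted p = 0.00268 in beclomethasone and 0.00108 in DMSO). The gene dkk3b, for a divergent member of the Dkk family, had levels of 15.2, 17.7 and 19.1 in 72 hpf beclomethasone embryos, 16.3, 20.5 and 23.5 in 72 hpf DMSO embryos, 0.561, 0.892 and 0.326 in 24 hpf beclomethasone embryos and 0.516, 0.495 and 6.98 in 24 hpf DMSO embryos. It was above background on all 6 of the 72 hpf arrays and on none of the 6 at 24 hpf, and the highest 24 hpf value came from 24 hpf DMSO replicate 3. The level at 72 hpf was at least 9.26-fold higher in beclomethasone and at least 3.49-fold higher in DMSO. The adjusted p-values, 0.000627 and 0.00234 in limma, test the measured signals and not these bounds. The dkk3b probe passed the filter only through the 72 hpf groups, where it is high. Its stage calls are therefore not independent of the filter. Its paralog dkk3a had levels of 21.5, 18.4 and 14.4 in 72 hpf beclomethasone embryos, 18.0, 18.1 and 13.9 in 72 hpf DMSO embryos, 3.50, 2.32 and 2.89 in 24 hpf beclomethasone embryos and 2.29, 2.91 and 7.19 in 24 hpf DMSO embryos. All 72 hpf values exceeded all 24 hpf values, with log2 fold changes of 2.64 (SE 0.37, adjusted p = 0.000149) in beclomethasone and 2.19 (SE 0.37, adjusted p = 0.000515) in DMSO, the second being 2.68 without 24 hpf DMSO replicate 3.

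The decoy receptor gene sfrp1b was similar, with levels of 21.0, 23.3 and 20.8 in 72 hpf beclomethasone embryos, 17.8, 22.6 and 17.8 in 72 hpf DMSO embryos, 2.55, 3.16 and 3.04 in 24 hpf beclomethasone embryos and 1.60, 1.91 and 7.66 in 24 hpf DMSO embryos. It was above background on no 24 hpf DMSO array, which makes the difference at least 3.39-fold in DMSO. The adjusted p there, 0.000571 in limma, tests the measured signals and not the bound. The log2 fold change of sfrp1b in beclomethasone was 2.90 (SE 0.48, adjusted p = 0.000415). Both probes of sfrp2 were called higher, the brightest with 1.47 in beclomethasone and 1.21 in DMSO, the other with 1.37 and 0.96. In contrast, sfrp5 had levels of 76.1, 69.7 and 72.1 in 72 hpf beclomethasone embryos, 93.0, 83.3 and 87.1 in 72 hpf DMSO embryos, 171, 197 and 216 in 24 hpf beclomethasone embryos and 298, 229 and 214 in 24 hpf DMSO embryos. The 72 hpf arrays were the lower ones throughout, with log2 fold changes of -1.42 and -1.48. Its relative sfrp1a differed by -0.54 in beclomethasone and -1.05 in DMSO, and dkk1b, for the classical Dkk inhibitor of Lrp5 and Lrp6 that promotes head formation, by -1.23 and -0.75. With slide as a block, the calls of dkk3b (adjusted p = 0.0818 and 0.123) in both treatments, sfrp1a in beclomethasone (adjusted p = 0.0875) and sfrp1b in DMSO (adjusted p = 0.0773) were lost.

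After beclomethasone at 24 hpf, dkk1b was higher and sfrp1a lower. Levels of dkk1b were 114, 118 and 103 in beclomethasone embryos and 94.0, 92.2 and 89.7 in DMSO embryos, without overlap, and the log2 fold change was 0.28 (SE 0.07, adjusted p = 0.0224). Without 24 hpf beclomethasone replicates 1 or 2 it was not called (adjusted p = 0.0707 and 0.0939). The dkk1b call was also lost with arrays centred on their median (0.20, adjusted p = 0.0898) and with a slide block (0.30, adjusted p = 0.142). A fit of only the arrays compared lost it too (adjusted p = 0.104). The other dkk1b probe gave 0.02 (adjusted p = 0.968). Levels of sfrp1a were 113, 127 and 129 in beclomethasone embryos and 177, 151 and 153 in DMSO embryos, a log2 fold change of -0.38 (SE 0.12, adjusted p = 0.0436), and the call was lost without 24 hpf DMSO replicates 1 or 2 or any 1 of the 24 hpf beclomethasone replicates (adjusted p 0.0507 to 0.139). It was also lost under quantile normalization (adjusted p = 0.0558), array weights (0.0668), no filter on dim probes (0.0617), only the arrays compared (0.0885) and a slide block (0.133). Without 24 hpf DMSO replicate 3, sfrp1b was also called higher (0.73, adjusted p = 0.00638), though on no DMSO array above background, and the brightest sfrp5 probe lower (-0.43, adjusted p = 0.0362). The dimmer sfrp2 probe fell to 23.1, 21.8 and 22.1 in beclomethasone embryos, against 32.2, 31.1 and 27.2 in DMSO embryos, a log2 fold change of -0.43 (SE 0.07, adjusted p = 0.00391). The brightest sfrp2 probe gave -0.37 (adjusted p = 0.31). A dimmer sfrp5 probe was called lower at both stages, with -0.41 at 72 hpf and -0.33 at 24 hpf (adjusted p = 0.0287 and 0.0395), while the brightest gave -0.27 and -0.34 (adjusted p = 0.275 and 0.0945). At 72 hpf, where replicate numbers pair the arrays, the dimmer probe's adjusted p was 0.0837 with the number as a block.

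All 4 tested intracellular transducers (9 of 9 tested probes) were called lower at 72 hpf in both treatments, beside 32.9% of all named genes. They were axin1, the scaffold of the complex that destroys beta-catenin, axin2, its relative and a textbook target gene of the pathway, and the Dishevelled genes dvl2 and dvl3a. Levels of axin2 were 256, 237 and 239.9 in 72 hpf beclomethasone embryos, 266, 243 and 258 in 72 hpf DMSO embryos, 536, 635 and 673 in 24 hpf beclomethasone embryos and 677, 582 and 560.4 in 24 hpf DMSO embryos. No 72 hpf value reached the lowest 24 hpf value, and the log2 fold changes were -1.33 (SE 0.10, adjusted p = 1.88e-06) in beclomethasone and -1.24 (SE 0.10, adjusted p = 2.87e-06) in DMSO. Levels of axin1 were 265, 267 and 240.5 in 72 hpf beclomethasone embryos, 262, 244 and 251 in 72 hpf DMSO embryos, 417, 479.7 and 487 in 24 hpf beclomethasone embryos and 611, 505 and 503 in 24 hpf DMSO embryos, with log2 fold changes of -0.84 and -1.09. For dvl2 the values were -1.32 and -1.40, and for dvl3a -0.98 and -1.03. By brightest probe, the 4 genes were called lower in both treatments under every alternative scaling, filter, block and weighting in which all 4 were tested. The slide block was among these, and 3 of 3 genes were called lower where dvl3a was filtered out. With slide as a block a dimmer dvl2 probe was called in neither treatment. Its values were -0.85 in beclomethasone and -0.38 in DMSO (adjusted p = 0.0797 and 0.398).

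No transducer was called for beclomethasone by its brightest probe. For axin2 the difference was -0.07 at 72 hpf (95% confidence interval -0.30 to 0.17) and 0.02 at 24 hpf (-0.22 to 0.25). For axin1 it was 0.03 (-0.20 to 0.25) and -0.22 (-0.45 to 0.00016). All 4 intervals lie within 1 log2 unit of 0. A dimmer dvl2 probe was called higher at 24 hpf (0.56, adjusted p = 0.0348), while its brightest probe gave -0.14 (adjusted p = 0.494). With normexp background correction the dimmer probe's value was 0.22 (adjusted p = 0.0866). The slide block fit no longer called that rise (0.57, adjusted p = 0.219). It called the remaining dvl2 probe lower at 24 hpf (-0.48, adjusted p = 0.0332), which was not called without the block. The dvl2 probes thus disagreed in direction.

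Among the nuclear factors, tcf7l1a, tcf7l1b and tcf7 were lower at 72 hpf in both treatments, and lef1 and tcf7l2 were not called by their brightest probes. These calls, 3 of 5 lower, stand beside 32.9% of all named genes. The repressor gene tcf7l1a, mutated in headless fish that lack eyes and forebrain, had levels of 122, 122 and 125 in 72 hpf beclomethasone embryos, 155, 139 and 131 in 72 hpf DMSO embryos, 361, 390.5 and 395 in 24 hpf beclomethasone embryos and 358, 354 and 373 in 24 hpf DMSO embryos. The stages stood apart, with log2 fold changes of -1.63 (SE 0.07, adjusted p = 5.07e-08) in beclomethasone and -1.35 (SE 0.07, adjusted p = 1.69e-07) in DMSO, and both other probes were called lower as well. Its paralog tcf7l1b differed by -0.72 and -0.98. The other tested probe of tcf7 was called by stage in neither treatment. The brightest lef1 probe read 74.9, 67.3 and 215 in 24 hpf DMSO embryos, the high value being replicate 3, and gave 0.73 in beclomethasone and 0.24 in DMSO (adjusted p = 0.0935 and 0.565). Without that array the values were 0.73 and 0.78 and both were called (adjusted p = 1.28e-05 and 1.93e-05). A second lef1 probe was called higher at 72 hpf, by 0.96 and 0.68, as was a dimmer tcf7l2 probe, by 0.85 and 0.74. Among nuclear factors, the slide block ended the calls of tcf7 in beclomethasone (adjusted p = 0.112) and of these lef1 and tcf7l2 probes in DMSO (adjusted p = 0.183 and 0.0558).

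The level of tcf7l1b was higher after beclomethasone at both stages. At 72 hpf its levels were 206, 199 and 217 in beclomethasone embryos and 133, 140.3 and 150.3 in DMSO embryos, a log2 fold change of 0.55 (SE 0.08, adjusted p = 0.00257). At 24 hpf they were 322, 362 and 338 in beclomethasone embryos and 304, 275 and 259.6 in DMSO embryos, a log2 fold change of 0.29 (SE 0.08, adjusted p = 0.0356). Treated arrays lay above DMSO arrays without overlap at each stage. A dimmer tcf7l1b probe rose by 0.76 at 72 hpf (adjusted p = 0.0253) and gave -0.08 at 24 hpf (adjusted p = 0.775). Its 72 hpf call was lost with the replicate number as a block (adjusted p = 0.0871) and under quantile normalization (0.69, adjusted p = 0.502). It was also lost under normexp background correction (0.36, adjusted p = 0.0583) and with a slide block (0.66, adjusted p = 0.278). The 72 hpf call of the brightest probe held without any 1 array and was lost with slide as a block (0.46, adjusted p = 0.105). The 24 hpf call was lost without 24 hpf DMSO replicates 2 or 3 or any 1 of the 24 hpf beclomethasone replicates (adjusted p 0.0518 to 0.133). It was also lost with arrays centred on their median (0.21, adjusted p = 0.0560), no filter on dim probes (0.0530), only the arrays compared (0.127) and slide as a block (0.311).

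The gene tcf7, dim throughout, read 4.50, 4.53 and 4.98 in beclomethasone embryos and 9.66, 5.23 and 8.02 in DMSO embryos at 24 hpf, a log2 fold change of -0.67 (SE 0.21, adjusted p = 0.0497). It was well above background on 2 of the 3 DMSO arrays, and the call was lost without 24 hpf DMSO replicates 1 or 3 or any 1 of the 24 hpf beclomethasone replicates (adjusted p 0.0825 to 0.136). The tcf7 call was kept with normexp background correction (-0.39, adjusted p = 0.00748) and with arrays centred on their median (-0.74, adjusted p = 0.0348). It was lost under quantile normalization (adjusted p = 0.16), array weights (0.141), no filter on dim probes (0.0682), only the arrays compared (0.148) and a slide block (0.229). It was also lost with 1 probe a gene (0.0549) and in the deposited table joined to the arrays it matches (-0.24, adjusted p = 0.268). The second tested tcf7 probe gave -0.59 (adjusted p = 0.168).

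**Figure D4:**
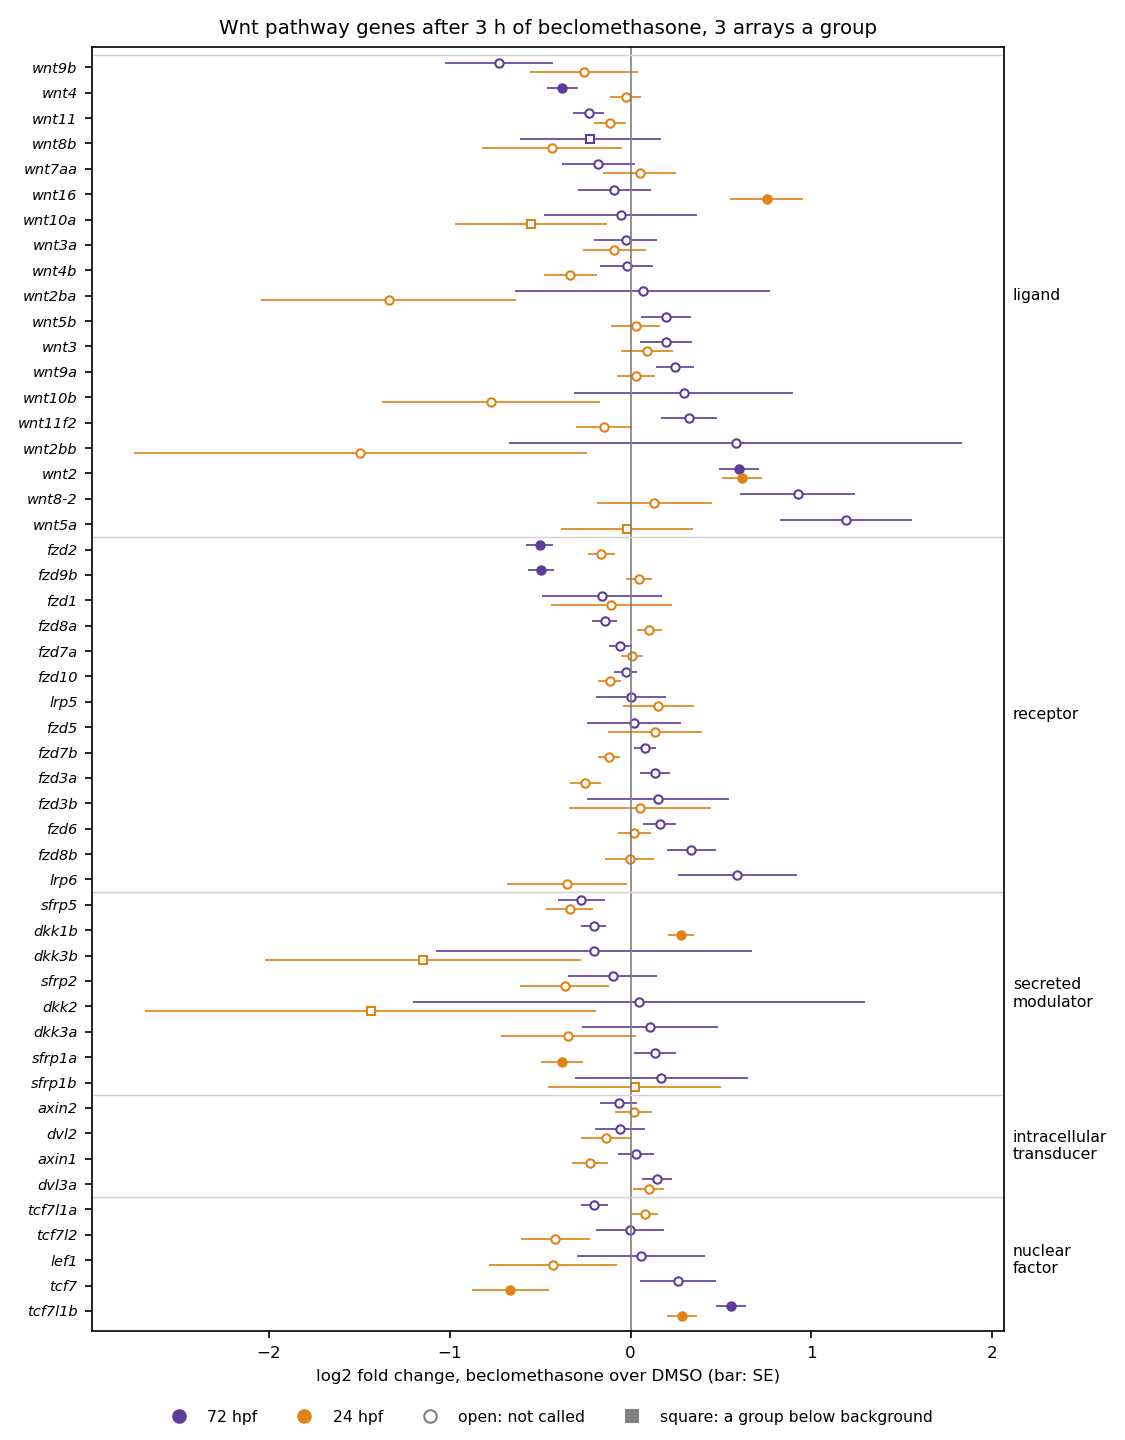
Log2 fold change of beclomethasone over DMSO (horizontal axis, bar for the SE, 3 arrays a group) for the 50 tested Wnt pathway genes, ordered by role, with 72 hpf above 24 hpf in each row. Filled symbols are called (5 at 72 hpf, 6 at 24 hpf), squares mark genes for which a compared group was above background on no array, and all called values lie within 1 log2 unit of 0.

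Of the 9 genes called for beclomethasone by their brightest probe, wnt2 and tcf7l1b were called at both stages, and 0 of the 9 changed 2-fold or more. Groups did not overlap for 20 of the 50 genes at 72 hpf and 16 of 50 at 24 hpf, against 40% and 45.6% of all named genes. The split of the 24 hpf calls, 4 higher and 2 lower, was 2 and 5 with arrays centred on their median, 4 and 0 under quantile normalization and 4 and 10 with the other background correction. Over all 36058 tested probes those fits called 9147, 6720 and 14106 at 24 hpf, against 7939 in the main fit. Among tissue markers, both measured blood genes were called higher at 24 hpf (hbae3 0.65 and gata1a 0.95) and gata1a lower at 72 hpf (-1.21), and of 3 skin genes tp63 was called higher at both stages (0.84 and 0.35), krt4 lower at 24 hpf (-0.31) and krt5 in neither. Their part in the results was not tested. Leaving out 24 hpf beclomethasone replicates 1, 2 or 3 left 1, 1 and 3 genes called at 24 hpf. Over all 36058 tested probes those fits called 4917, 3868 and 6391. With slide as a block, 0 of 50 genes were called at 72 hpf (6 at an unadjusted p under 0.05 in limma). At 24 hpf 1 was called by its brightest probe (8 unadjusted), which was fzd3a, lower by 0.43 on the log2 scale. A dimmer dvl2 probe was called lower there as well. Over all tested probes the slide block fit called 928 at 72 hpf and 1529 at 24 hpf, against 3335 and 7939 without the block. A single slide holds treated and DMSO arrays of a stage, 3 against 1 at 72 hpf and 1 against 3 at 24 hpf, and the values within it are those of the slide block.

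The effect of beclomethasone differed between the stages for fzd9b and dkk1b, 2 of 50 genes and both with a negative difference, against 8.58% of all named genes (3.05% positive and 5.54% negative). The log2 fold change at 72 hpf minus that at 24 hpf was -0.54 (SE 0.10, adjusted p = 0.0153) for fzd9b and -0.48 (SE 0.10, adjusted p = 0.0225) for dkk1b. For dkk1b the effects were -0.21 at 72 hpf (adjusted p = 0.122) and 0.28 at 24 hpf. The dimmer sfrp2 probe differed as well, by 0.42 (SE 0.10, adjusted p = 0.0411). With slide as a block the differences of fzd9b (-0.37), dkk1b (-0.48) and this sfrp2 probe (0.35) were no longer called (adjusted p = 0.244, 0.229 and 0.35). The brightest sfrp2 probe and the other dkk1b probe were called for the difference in neither fit. For wnt2 the difference was -0.02 (95% confidence interval -0.37 to 0.34), and for tcf7l1b it was 0.27 (-0.0021 to 0.54).

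Other genes of the pathway, each given by its brightest tested probe, were read from 4 further lists. Their stage counts stand beside 35.7% of all named genes called higher and 37.5% lower in beclomethasone, and 34.1% and 38.4% in DMSO. Nothing particular to a list is read from these counts. The calls of the list genes were not followed through the alternative fits, such as the slide block or those without 1 array. Among genes for secretion of Wnt and its handling at the cell surface, 12 of 27 were measured, and 3 were called higher and 7 lower at 72 hpf in each treatment. The secreted antagonist gene frzb rose by 4.10 in beclomethasone and 3.60 in DMSO, and rspo1, for a secreted enhancer of Wnt signalling, by 3.67 and 3.08. The gene wls, whose product carries Wnt to the cell surface, differed by -0.63 and -0.66. For beclomethasone, rspo3 was called lower at 72 hpf (-0.30), and at 24 hpf the Dkk receptor gene kremen1 was called higher (0.81) and frzb and rspo1 lower (-0.54 and -0.92).

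Of 30 genes of the destruction complex and of the nuclear partners of beta-catenin, 26 were measured. At 72 hpf 6 were higher and 11 lower than at 24 hpf in beclomethasone, and 5 and 14 in DMSO. Both beta-catenin genes were lower, with log2 fold changes of -0.94 in beclomethasone and -1.04 in DMSO for ctnnb1 and -0.79 and -0.78 for ctnnb2. The kinase genes gsk3aa, gsk3ab, gsk3ba and gsk3bb were not called by stage or treatment. After beclomethasone csnk1db was higher at 72 hpf (0.41, adjusted p = 0.0022). At 24 hpf csnk1e was called higher, and tnika (-0.80), fbxw11b (-0.35), pygo2 (-0.45), csnk1da and apc lower.

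Of 20 planar polarity genes 11 were measured, with 1 higher and 6 lower by stage in beclomethasone and 2 and 6 in DMSO. The core polarity gene prickle1a was called higher after beclomethasone at both stages, by 0.87 at 72 hpf and 0.64 at 24 hpf (adjusted p = 0.00323 and 0.0104). Its levels were 36.6, 28.5 and 30.8 in 72 hpf beclomethasone embryos, 19.2, 15.2 and 18.1 in 72 hpf DMSO embryos, 42.3, 45.3 and 43.8 in 24 hpf beclomethasone embryos and 31.3, 30.1 and 23.7 in 24 hpf DMSO embryos. At 24 hpf prickle1b was also higher (0.30) and daam1b lower (-0.42), and at 72 hpf rock2a was lower (-0.28).

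Of 28 genes known as targets of beta-catenin signalling, other than the pathway members, 21 were measured. At 72 hpf 3 were higher and 16 lower than at 24 hpf in beclomethasone, and 2 and 15 in DMSO. After beclomethasone at 72 hpf, tbxta (0.50) and ascl1a (0.36) were called higher and the Myc genes myca (-0.47) and mycb (-0.38) lower. At 24 hpf nkd1, a feedback inhibitor gene of the pathway, was called higher (0.68, adjusted p = 0.00264), as were mitfa, mycb and dact1, and tnfrsf19 was called lower. The 2 and 2 calls at 72 hpf and the 4 and 1 at 24 hpf stand beside 12.3% and 24.1% of all named genes called.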

How the data were processed

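Gene expression was measured in 12 samples of whole embryos, 1 array each. The scanner output holds intensity values, which the authors read with Agilent Feature Extraction (version 10.7.1.1, array design 026437), with local background removed and no scaling across arrays, per the file headers. A second deposited table, on the log2 scale, holds the authors' processed values, for which the submitters' processing notes name Agilent Feature Extraction and limma. Each column of that deposited log2 table correlated best, over 13879 probes centred on their means, with the array whose scanner output gives that stage and number but the other treatment (r 0.988 to 0.997, against 0.658 to 0.827 for its own label), so that it served only as an alternative. The flags for spots above background and for outlying spots (unit other) are those deposited by the authors.

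From the scanner arrays, log2 intensity was centred on each array's 75th percentile over 43803 non-control spots, outlier spots (14 to 79 an array) were left out, and spots of a probe averaged. The test took the 36058 probes flagged well above background on all 3 arrays of at least 1 group and missing on no array. Means of the 4 groups were estimated with limma 3.58.1 in R 4.3.3, with 8 residual degrees of freedom, moderated with eBayes, and p-values were adjusted by Benjamini-Hochberg over all tested probes. Fits were tested on simulated data. Symbols came from RefSeq accessions, which named 25069 of 26981 probes with one. Depth is not defined for arrays; 3 arrays a group limit the precision. A bound sets each dim array at the higher of its lowest signal above background and the probe's own signal. A bound has no test of its own.

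The members, the lists, the tests and the naming rule were chosen with earlier results of these data known. Named are all genes with a probe called for treatment or its difference, up to 10 of each direction by stage, a fixed set of well-known members, and up to 6 per further list; dkk2, fzd1, fzd3b, fzd6, wnt10a, wnt2ba, wnt2bb, wnt4b and wnt9b, wls, and the beta-catenin and gsk3 genes fall outside it and were named after their values were seen. The replicate numbers paired arrays at 72 hpf, where same-numbered arrays deviated together (r 0.506 to 0.537, origin of the pairing not given in the labels), but not at 24 hpf (r -0.092 to 0.0662). The alternatives were other centring, quantile normalization, normexp background correction (on the median signal, since the files hold no mean signal), other filters, 1 probe a gene, only the arrays compared, slide or replicate number as a block, array weights, the deposited table, and each array left out.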

Additional observations from a re-analysis of the deposited data

Results flagged for a closer look

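For 3 probes the effect of beclomethasone differed between the stages by the test of the difference itself. The log2 fold change at 72 hpf minus that at 24 hpf was -0.54 for fzd9b, from effects of -0.50 at 72 hpf and 0.05 at 24 hpf. It was -0.48 for dkk1b, from -0.21 and 0.28, and 0.42 for the dimmer sfrp2 probe, from -0.02 and -0.43. The adjusted p-values were 0.0153, 0.0225 and 0.0411 with limma. In the fit with a slide block they were 0.244, 0.229 and 0.35. The brightest sfrp2 probe and the other dkk1b probe were called for the difference in neither fit. The fzd9b call held without any 1 array. The dkk1b call was lost without 24 hpf beclomethasone replicates 1 or 2, 72 hpf DMSO replicate 2 or any 1 of the 72 hpf beclomethasone replicates (adjusted p 0.0547 to 0.0667), and the sfrp2 call without any 1 array other than 24 hpf DMSO replicate 3 (adjusted p 0.0584 to 0.109).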

How the results depend on the processing

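The treatment calls changed most with the labels and with the slide. In the deposited table as labelled, all 22 treatment calls turned round. At 72 hpf the log2 fold changes there were tcf7l1b -0.58, wnt2 -0.60, fzd2 0.51, fzd9b 0.51, wnt4 0.42, a dimmer probe of sfrp5 0.39 and a dimmer probe of tcf7l1b -0.53. At 24 hpf they were tcf7l1b -0.27, wnt2 -0.45, sfrp1a 0.42, dkk1b -0.25, wnt16 -0.48, tcf7 0.24, a dimmer probe of fzd8a -0.29, a dimmer probe of fzd7b -0.39, a dimmer probe of dvl2 -0.45, a dimmer probe of sfrp2 0.36, a dimmer probe of sfrp5 0.29 and a dimmer probe of fzd7b -0.29. The differences of the effects were fzd9b 0.55, dkk1b 0.48 and a dimmer probe of sfrp2 -0.36. With that table joined to the arrays it matches, 14 of the 22 calls were kept. With slide as a block 0 of 22 were kept, all 22 with the same sign. In that fit 0 genes were called at 72 hpf, 1 at 24 hpf and 0 for the difference, against 928, 1529 and 63 of 36058 probes. With the replicate number as a block 14 of 22 were kept. There 3 genes were called at 24 hpf and 1 for the difference, against 6878 and 1335 of 36058 probes. The dkk1b and sfrp2 differences were lost with the replicate number as a block (adjusted p = 0.0587 and 0.0769). At 24 hpf, where the numbers do not pair, only the count is given.

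Of 50 genes, those called at 24 hpf numbered 14 with normexp background and 3 with no filter on dim probes. In a fit of the 6 arrays compared, 0 were called (8 at an unadjusted p under 0.05 in limma). That fit has fewer samples and takes the spread from those arrays alone. Over all probes these 24 hpf calls numbered 14106 of 36058, 6642 of 43472 and 2062 of 36058. The fit of the arrays compared was not run for the difference, which uses all arrays. Arrays correlated at 0.93 to 0.993 within 24 hpf DMSO and at 0.988 or more within the other groups. Fits of only the arrays compared kept 7 of the 19 calls for beclomethasone, and the 12 lost were all at 24 hpf. At 72 hpf the genes called numbered 8 in such a fit and 8 with array weights, against 4799 and 6101 of 36058 probes. For the difference they numbered 11 with normexp background, 5 with only probes above background on all arrays and 5 with array weights. Over all probes the calls for the difference numbered 8747 of 36058, 3573 of 16009 and 6228 of 36058. The filter for probes above background on all arrays tested 27 genes. It called 21 by stage in beclomethasone, 23 in DMSO and 20 in both. Over all probes it called 12686 of 16009 by stage in beclomethasone and 13069 in DMSO. Stage values turned round in DMSO, fzd2 to -0.00092 with median centring, lrp5 to 0.44 with quantile normalization and fzd8b to -0.17 with normexp background. The count called in both stage contrasts, added after the data were seen, was otherwise 22 (slide block) to 37 (normexp background). Over the fits that left out 1 array, the counts ran from 4 to 5 at 72 hpf, 1 to 6 at 24 hpf, 1 to 4 for the difference, 33 to 35 by stage in beclomethasone, 34 to 41 in DMSO and 30 to 37 in both. Of 36058 probes those fits called 1899 to 2877 at 72 hpf, 3868 to 10205 at 24 hpf and 1008 to 5217 for the difference. By stage they called 22197 to 22720 in beclomethasone and 22269 to 27269 in DMSO. For calls in both stage contrasts no count over all probes was made in the alternative fits. The causes of these changes were not tested. Signal near background on 24 hpf DMSO replicate 3 limits the dim probes.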
